A study of Mus musculus with 2 samples.

Results

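LOC101056014, Malat1, Neat1, Gas5 and Snhg1 are 5 long noncoding RNA genes of the 35976 gene rows measured here, and were chosen by name for their abundance or prominence in these read counts. Their levels are therefore a description, with no test. All 5 had a row and reads in the tables. The cells were CD4 T cells with the transgenic OTII receptor, recovered from the spleens of host mice on day 7 after CAS, an abbreviation the labels do not explain, and a second priming. Control hosts were C57BL/6 (2 mice, pooled) and deleted hosts were IL13Ra1f/f, CD11cCre/+ (3 mice, pooled). The Cre is driven by the promoter of CD11c, a gene used chiefly by dendritic cells, so the deletion was made in host cells and not in the transferred T cells. The sort kept propidium iodide negative cells that were CD4+ and stained for V beta 5.1 or 5.2, without a congenic marker, so host T cells with that V beta chain could pass. Each group was 1 pooled sample of 368 cells on 4 plates, measured by SmartSeq2, which sequences full-length cDNA of single sorted cells. There was no replicate pool. Plates are technical splits, and plate and group cannot be told apart because no plate held both groups.

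Long noncoding RNAs are transcripts that are not translated into protein. Malat1 is retained in the nucleus, in the nuclear speckles where splicing factors are stored. Neat1 is the scaffold RNA of paraspeckles, nuclear bodies that hold RNA-binding proteins such as Nono and Sfpq. Gas5 and Snhg1 are host genes of small nucleolar RNAs (snoRNAs), which are cut from their introns and guide the chemical modification of ribosomal RNA. The spliced exons of such hosts reach the cytoplasm, where they are commonly degraded by nonsense-mediated decay, and Gas5 starts with the pyrimidine-rich 5' TOP sequence typical of ribosomal protein mRNAs. Gas5 is also known to bind the glucocorticoid receptor. LOC101056014 is a predicted locus with no function that can be stated here, next to sequence that resembles ribosomal RNA.

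The 3' ends of Malat1 and of the long Neat1 transcript are shown first, because the cDNA was primed with oligo(dT), which pairs with runs of A. Both of these transcripts are known to be cut at the 3' end by RNase P. They end in a protective triple helix, not in a poly(A) tail, so the primer meets no tail there. Where the primer bound these RNAs was not tested. A shorter annotated Neat1 transcript of 3004 bases has another 3' end, which is not shown. The 2 sequences come from the GENCODE M21 transcripts, in transcript positions counted from 1 at the 5' end, with runs of at least 10 bases that both share in capitals. The Malat1 stretch covers positions 6584 to 6749 of 6983 and ends with the 58 bases of mascRNA, the tRNA-like fragment released by that cut. The Neat1 stretch covers the last 120 bases of the 20771-base transcript.
Malat1-201: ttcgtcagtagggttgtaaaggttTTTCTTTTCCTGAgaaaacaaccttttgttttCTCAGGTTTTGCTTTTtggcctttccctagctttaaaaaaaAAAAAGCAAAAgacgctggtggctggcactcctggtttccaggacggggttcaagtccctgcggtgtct
Neat1-201: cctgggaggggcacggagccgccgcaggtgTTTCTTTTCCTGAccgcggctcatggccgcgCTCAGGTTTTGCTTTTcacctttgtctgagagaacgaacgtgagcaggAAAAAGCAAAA
The 2 RNAs shared 3 such runs in the same order. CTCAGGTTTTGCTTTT (16 bases) was found in 2 of the 141767 GENCODE transcripts, those of these 2 genes. TTTCTTTTCCTGA (13 bases) was found in 35 transcripts (0.0247%) and AAAAAGCAAAA (11 bases) in 618 (0.436%). In Malat1 the last of these runs continues an unbroken run of 12 A at positions 6674 to 6685, which lies 298 bases before the annotated end, and 4.07% of all GENCODE transcripts hold a run of 12 or more. The longest run of A in the long Neat1 transcript was 7, and in the Gas5 and Snhg1 transcripts examined it was 4.

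The start sites of the snoRNA hosts are shown because their relation to ribosomal protein genes is described later. They are from RefSeq (GRCm38.p6), 50 bases on each side of an annotated start on the + strand, and capitals mark a run of C followed by at least 4 more pyrimidines that begins within 5 bases of the start. Gas5 has 2 entries, of which the one shown is chr1:161035116-161035215. The Snhg1 window is chr19:8723437-8723536.
Gas5: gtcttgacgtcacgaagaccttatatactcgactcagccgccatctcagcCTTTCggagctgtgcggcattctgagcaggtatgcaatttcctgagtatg
Snhg1: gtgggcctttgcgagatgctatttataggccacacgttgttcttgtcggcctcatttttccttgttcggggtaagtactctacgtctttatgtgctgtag
Such a run begins at the annotated Gas5 start shown, CTTTC, and those letters are not in the searched place in the Snhg1 window or the other Gas5 entry. Counted per gene, with any entry of a gene sufficing, the run was present in 21.2% of all 27025 genes with a RefSeq promoter, in 36.4% of the 33 listed ribosomal protein genes with an entry and in 44.4% of the 18 listed snoRNA hosts with an entry. The search thus missed most of the listed ribosomal protein genes. Its miss in the Snhg1 window therefore does not show that Snhg1 lacks a 5' TOP sequence.

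Together the 5 RNAs took 7.57% of all reads in genes, 6.76% in control hosts and 8.43% in deleted hosts. Pool totals were 573105030 and 542650671 reads in genes, with plate medians of 1399880 to 1655670 reads per cell, and 2 cells of deleted hosts had under 100000 reads. Summed levels of 9 CD4 T cell markers were 7465 to 8396 per 1000000 reads (CPM) on control plates and 7707 to 9047 on deleted plates. Of the marker lists for other cell types, none summed to more than 152 CPM on any plate, and the highest was the plasma cell list, of which Xbp1 is not specific. Summed mitochondrially encoded RNA was 19265 to 23415 CPM on control plates and 19108 to 22527 on deleted plates.

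None of the 5 RNAs differed between the groups by 2-fold, and for none did all plates of a group lie above all plates of the other. Among the 7207 genes that reached 20 CPM in at least one group, plates did not overlap for 4.68% and the difference was at least 2-fold for 5.91%. Folds are ratios of (CPM + 1), and a log2 ratio above 0 means a higher level in deleted hosts. The median log2 ratio of those genes was -0.04.

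LOC101056014 was the row with the most reads in the study. The identifier is that of a RefSeq long noncoding RNA gene named AY036118 at chr17:39848112-39898385 on the minus strand (GRCm38.p6). In that annotation its 3' end overlaps Rn18s-rs5, a pseudogene related to 18S ribosomal RNA (chr17:39846354-39848202), by 91 bases. GENCODE M21 places its own AY036118 at chr17:39847113-39848035, with no base in common with the RefSeq gene, inside a gene of type rRNA (CT010467.1, chr17:39846353-39848827) that overlaps the RefSeq gene by 716 bases. The tables have no row for Rn18s-rs5, and how reads with several matches were counted is not given in the sources used here. The part of this row that comes from ribosomal RNA-like sequence was not tested.

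LOC101056014 took 5.53, 6.05, 5.11 and 7.07% of the reads on control plates 1 to 4, and 7.54, 6.74, 8.04 and 7.99% on deleted plates 1 to 4. Deleted plates 1, 3 and 4 lay above every control plate, while deleted plate 2 lay below control plate 4. The pool level was 59477 CPM for control hosts against 75870 for deleted hosts, a log2 ratio of 0.35 or 1.28-fold, at the 82.9th percentile of the 7207 genes. Leaving out any plate kept the log2 ratio between 0.29 and 0.45. Of those genes, 22.5% were at least 1.2-fold higher in deleted hosts.

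The share of LOC101056014 in single cells was lowest at 1.63%, with a median of 6.45% and a maximum of 50.8% of a cell's reads. It was the most abundant row in 734 of 736 cells, and medians were 5.63% in control and 7.32% in deleted hosts. Plates accounted for 18.4% of the variance of its log2 level over cells, against 0.433 to 2.69% for the other 4 RNAs. In 4 cells the share was above 30%. The highest was in deleted plate 4 (203180 reads and 815 genes with at least 5 reads), followed by 49.3% in a cell of control plate 1 (223440 reads, 648 genes). All 4 cells therefore held few genes beside a median of 1556 over all cells, as the other 2 had 658 and 768.

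Control wells named mBM10 and mBM100 stood on the same plates. The labels do not explain these names. The wells were rich in Hba-a1 (median 24679 CPM), a haemoglobin gene, and Mpo (15068 CPM), the myeloperoxidase of granulocyte precursors, and poor in Cd4 (4.10 CPM). In the 22 such wells with at least 100000 reads, LOC101056014 ranged from 43008 to 130648 CPM with a median of 77647, and 11 wells lay above all cell plates and 4 below. The mBM10 wells had a median of 49027 CPM on control plates (7 wells, 43008 to 91806) and 84063 on deleted plates (6 wells, 65069 to 103839), a ratio of 1.71. The mBM100 wells had 73470 CPM (4 wells, 57534 to 100244) and 109731 (5 wells, 81462 to 130648), a ratio of 1.49. The higher level on deleted plates was thus present in wells poor in T cell RNA, with overlapping ranges, and at ratios above the 1.28 of the cells. In 9 wells named noinput or dw, with 6698 to 12348 reads each, the level was 68244 to 92005 CPM.

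**Figure D1:**
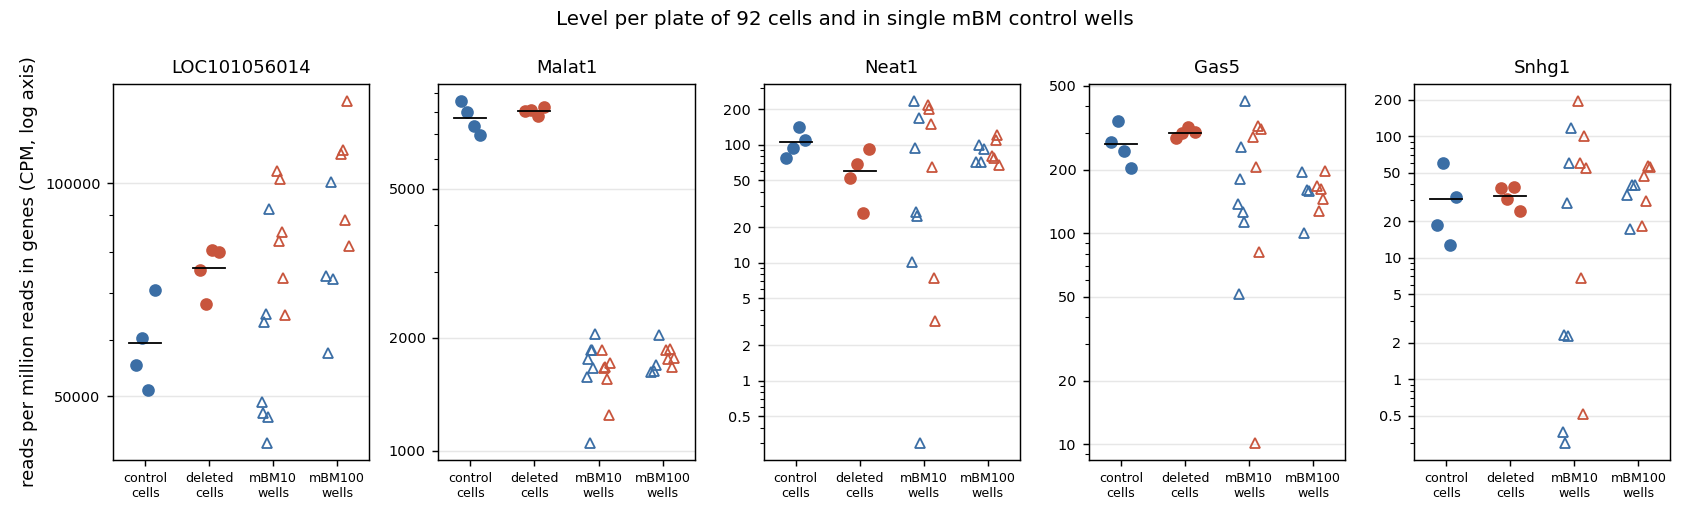
Level of each RNA in CPM (log axis). Filled points are plates of 92 cells with their mean as a black line, and open triangles are single mBM10 or mBM100 wells, blue for control and red for deleted plates; a well at 0 is drawn at 0.3. Malat1 is the RNA for which all 22 mBM wells lie below all 8 cell plates, and the medians of the LOC101056014 wells are higher on deleted plates.

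Malat1 was the 4th most abundant row. It lies at chr19:5795690-5802672 on the minus strand and has a single exon in the transcript shown. It was at 8594, 8040, 7364 and 6969 CPM on control plates 1 to 4 and at 8047, 8124, 7836 and 8280 CPM on deleted plates 1 to 4. The deleted plates lay inside the range of the control plates. Plate means were 7742 ± 720 CPM (SD, n = 4 plates) and 8072 ± 185 CPM, and the pool log2 ratio was 0.06.

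Every cell was positive for Malat1. Its share of a cell's reads was lowest at 0.206%, with a median of 0.775% and a maximum of 3.48%, and its median rank among the genes of a cell was 5. The coefficient of variation over cells was 0.404. The 8 other genes within 2-fold of its mean level had coefficients of 0.413 to 0.788, so none was lower than that of Malat1.

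The mBM wells differed most from the T cells in Malat1. All 22 deep wells, at 1049.8 to 2052 CPM with a median of 1699, lay below all 8 plates, and the median of the plates was 4.74-fold higher. The mBM10 and mBM100 wells had similar medians, 1671 and 1761 CPM. Between control and deleted plates the medians of these wells were 1688 and 1709 CPM, so Malat1 did not follow the shift of LOC101056014 there. The noinput and dw wells were at 7208 to 10600 CPM, within or above the range of the cell plates, from 71 to 118 Malat1 reads each. A further well on control plate 2, named mBM100 and with 11622 reads, had 10325 CPM and was left out of the 22.

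Neat1, whose gene lies beside Malat1 at chr19:5824708-5845480 on the same strand, was present in a minority of cells. It was at 77.3, 93.7, 139.7 and 109.6 CPM on control plates 1 to 4 and at 51.9, 68.9, 26.6 and 91.1 CPM on deleted plates 1 to 4. Deleted plates 1, 2 and 3 lay below all control plates, and deleted plate 4 lay inside their range. The pool log2 ratio was -0.80, at the 5.49th percentile of the 7207 genes. Without deleted plate 4 it was -1.09, and without deleted plate 3 -0.55.

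The Neat1 signal came from 116 cells (15.8%) called positive, which needed both 10 CPM and 5% of the mean level on the plate. These were 64 control cells (17.4%, exact 95% interval 13.7 to 21.7) and 52 deleted-host cells (14.1%, 10.7 to 18.1), with overlapping intervals that cover counting error only. By plate, 14, 12, 19 and 19 of 92 cells were positive in control hosts, and 15, 14, 11 and 12 in deleted hosts. Positive cells held a median of 478 CPM (control) or 209 CPM (deleted). The remaining cells had a median of 2 Neat1 reads and at most 18, beside 0 to 6 reads in the noinput and dw wells. Between 10 and 100 CPM lay 12 control and 18 deleted-host cells, and at 100 CPM or more 52 and 34. The mBM100 wells varied less (66.9 to 121.6 CPM) than the mBM10 wells (0 to 235.2 CPM).

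**Figure D2:**
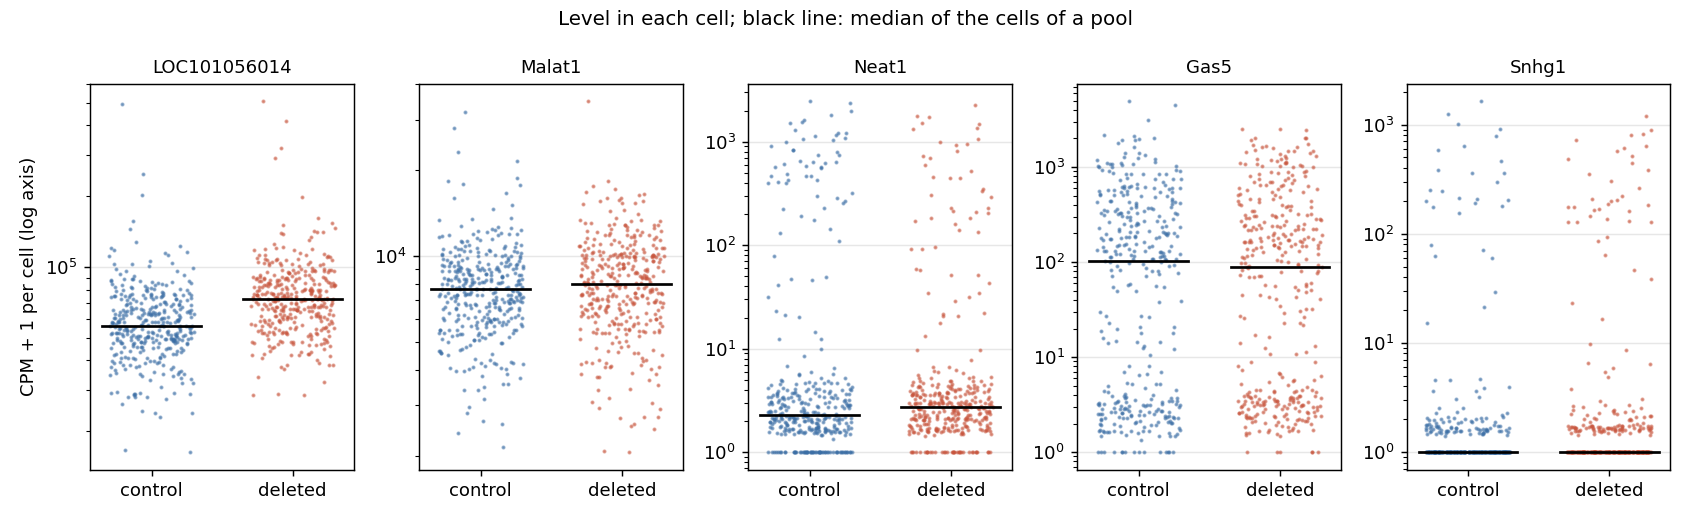
CPM + 1 of each RNA in every cell (log axis) of control (blue) and deleted hosts (red), with the median of 368 cells as a black line. LOC101056014 and Malat1 form a single cloud in all cells, while most Neat1 and Snhg1 cells lie below 10 CPM and Gas5 cells spread on both sides of it; of 736 cells, 30 for Neat1, 96 for Gas5 and 14 for Snhg1 lie between 10 and 100 CPM.

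Gas5 was the most abundant of the snoRNA hosts. Its gene at chr1:161034601-161038539 holds 8 annotated snoRNAs and overlaps other annotated genes, among them Zbtb37 by 264 bases. Without a stated strand setting, reads in shared stretches cannot be assigned with certainty, and Zbtb37 was at 10.8 CPM. Gas5 was at 270.1, 339.2, 245.3 and 205.2 CPM on control plates 1 to 4 and at 283.3, 299.1, 319.7 and 300.9 CPM on deleted plates 1 to 4. Control plate 2 lay above all deleted plates and the other 3 control plates below them, and the pool log2 ratio was 0.19. Exactly as many cells were positive in each group, 224 of 368 (60.9%, 55.7 to 65.9). The median of positive cells was 268 CPM for control against 238 for deleted hosts, the opposite order to the pool levels. Of the 22 mBM wells, 16 lay below all cell plates, including all 9 mBM100 wells (101 to 199 CPM).

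Snhg1, at chr19:8723487-8726326 on the + strand, also holds 8 annotated snoRNAs and was the least abundant of the 5. It was at 18.5, 59.5, 12.6 and 31.3 CPM on control plates 1 to 4 and at 37.5, 30.3, 37.8 and 24.1 CPM on deleted plates 1 to 4. The control plates spanned the whole range of the deleted plates, and the pool log2 ratio of 0.09 became 0.60 without control plate 2 and -0.16 without control plate 3. It was positive in 29 control cells (7.88%, 5.34 to 11.1) and 39 deleted-host cells (10.6%, 7.65 to 14.2). Most cells had no Snhg1 read at all. The median of the mBM wells, 36.1 CPM, lay inside the range of the cell plates.

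Per kilobase of annotated GENCODE exon, with the exons of all transcripts of a gene joined, Malat1 was highest at 1108 CPM per kb in control and 1156 in deleted hosts. Gas5 followed at 70.2 and 80.1, Snhg1 at 10.2 and 10.9 and Neat1 at 5.06 and 2.89 CPM per kb. The order of Snhg1 and Neat1 per length is the reverse of their order by reads, because the long Neat1 transcript has 20.8 kb of exon. The shorter annotated Neat1 transcript has 3004 bases. Joined exons came to 2969 bases for Snhg1 and 3760 for Gas5. Single transcripts examined were shorter, at 605 and 709 bases for Snhg1 and 430 to 793 for Gas5. The order of Snhg1 and Neat1, and the distance of Malat1 from Gas5, therefore rest on the lengths used. How the reads of a gene divide between its transcripts was not tested. By the joined exon lengths, Snhg1 spanned 4.26 to 20.1 and Neat1 1.28 to 6.72 CPM per kb over the 8 plates. These neighbours in the order overlapped, while the plates of Malat1 and Gas5 did not overlap with any other. LOC101056014 was left out, since its RefSeq and GENCODE gene models share no base.

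Malat1 was lower in cells with more detected genes. Genes with at least 5 reads were counted after each cell was thinned to 500000 reads, in 730 cells. From the 25% of cells of each plate with the fewest genes to the 25% with the most, the median Malat1 level was 9837, 8047, 7248 and 6807 CPM, at medians of 1120, 1289, 1466 and 1758.5 genes. The first group was 1.45-fold above the last. Spearman's rho was -0.46 with plate medians subtracted, and -0.63 to -0.30 in single plates, negative in 8 of 8. It was the lowest of 1891 genes compared, whose median was 0.07 and whose 5th and 95th percentiles were -0.05 and 0.20. A gene found in only part of the cells adds to the count where it is found, which Malat1, present in every cell, does not. The rank of Malat1 among genes found in all cells was not tested. The cells share plates and depth, and rho with the total reads of a cell was -0.29.

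The strength of this relation rests on how a gene is counted as detected. With at least 1 read, rho was -0.13. Wells named noinput or dw held 3112 to 4472 genes with at least 1 read and 181 to 439 with at least 5, against medians of 4370 and 1556 in cell wells, so the first count is close to that of wells without a named input. Leaving the 5 RNAs out of the reads before thinning, thinning to 200000 reads, or not thinning moved rho by less than the SD between plates, 0.117.

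Rank correlations of the other members were nearer 0. The correlation with genes detected (Spearman's rho) was 0.08 for LOC101056014 (-0.09 to 0.28 by plate), -0.09 for Neat1 (-0.22 to -0.00353), 0.04 for Gas5 (-0.09 to 0.20) and 0.06 for Snhg1 (-0.10 to 0.26). All 8 values for Neat1 were below 0 but none was below the least negative Malat1 plate. Shares of positive cells were higher with the most than with the fewest genes detected for Gas5 and Snhg1, though neither rose at every step. From the 25% of cells with the fewest genes to the 25% with the most, Gas5 was positive in 56.5, 55.5, 60.6 and 71.2% of cells and Snhg1 in 4.89, 10.4, 8.89 and 12.5%. The Snhg1 shares stand for 9, 19, 16 and 23 cells. Whether sparse genes of like level show the same, since a gene that is found adds to the count, was not tested. The Neat1 share was 18.5, 14.3, 12.2 and 16.3%. In 9 cells without Eef1a1, the translation elongation factor found in the other 725 cells with at least 100000 reads, LOC101056014 had a median share of 24.8% (7.63 to 50.8) against 6.41%. Malat1 had a median of 17917 CPM (4262 to 34829) against 7729 in those cells. These 9 cells, 5 of them from control hosts, had 648 to 1229 genes and 178914 to 901439 reads.

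**Figure D3:**
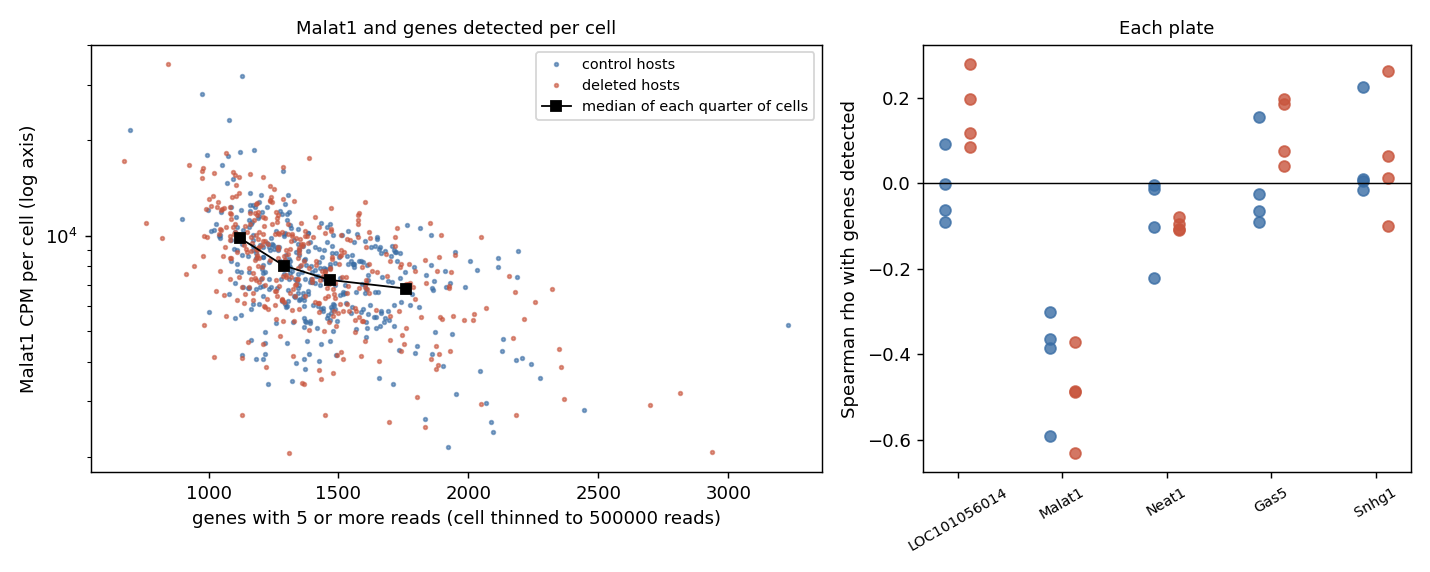
Left, Malat1 CPM (log axis) against genes with 5 or more reads in 730 cells thinned to 500000 reads, with the median of each 25% of cells as black squares. Right, Spearman's rho with genes detected for each RNA on each of 8 plates. All Malat1 values lie between -0.63 and -0.30. Those of the other RNAs lie between -0.22 and 0.28, with all Neat1 values below 0.

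Ribosomal protein genes, which set the translation capacity of the cell, moved with 3 of the RNAs over cells, in different directions. Their summed level over 45 genes had a rho of 0.23 with LOC101056014 (0.08 to 0.41 by plate), 0.19 with Gas5 (0.03 to 0.38) and -0.20 with Malat1 (-0.33 to -0.10), with the same sign in 8 of 8 plates each. The rho was -0.11 with Neat1 and 0.01 with Snhg1, with plates on both sides of 0. Between the groups, 10 of these 45 genes had plates that did not overlap and all 10 were lower in deleted hosts, against a background of 2.86% for that direction, and none was 2-fold. Rpl32 was at 795 and 616 CPM and Rps23 at 945 and 765 CPM in control and deleted hosts. The other 18 listed 5' TOP translation genes, led by Eef1a1, gave -0.17 with Malat1 (8 of 8 plates negative), 0.14 with LOC101056014 and 0.15 with Gas5, with none of the 18 apart between groups.

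Nuclear speckle and splicing factors, the proteins among which Malat1 resides, had a rho of 0.14 with Malat1 (0.01 to 0.38 by plate, 8 of 8 positive) and -0.17 with LOC101056014 (8 of 8 negative). With genes detected held fixed, an alternative chosen after seeing the data, the value for Malat1 was 0.05 and that for LOC101056014 -0.15. Leaving the 5 RNAs out of the denominator gave 0.14 and -0.10. All 25 listed genes were measured and within 2-fold between groups, with a median log2 ratio of -0.09. Srsf6 was at 262.3 and 358.0 CPM and Srsf10 at 152 and 101 CPM in control and deleted hosts. Paraspeckle proteins, the partners of Neat1, had a rho of -0.03 with it over cells. Of 17 measured, 12 were lower and 5 higher in deleted hosts, with a median log2 ratio of -0.17. Tardbp, an RNA-binding protein that also enters paraspeckles, was the only one past 2-fold, at 102 and 49.4 CPM, with plates that overlapped. Nono was at 487 and 433 CPM and overlapped likewise.

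Among snoRNA host genes, 8 of 21 listed were measured at 20 CPM or more, with a median log2 ratio of 0.08. The 6 others beside the members were Snhg5 (34.1 CPM in control and 36.5 in deleted hosts), Snhg6 (23.2 and 13.2), Snhg8 (31.5 and 33.0), Snhg15 (22.8 and 21.9), Snhg17 (50.9 and 25.5) and Zfas1 (20.5 and 24.2). Plates did not overlap for Snhg6, at 19.9 to 24.9 against 12.7 to 13.8 CPM, and Snhg17, at 39.0 to 59.3 against 21.5 to 32.5 CPM. Both were lower in deleted hosts, and 2.86% of all genes tested were called in that direction. Gas5 and Snhg1 did not share that direction. The sum of the other snoRNA hosts had a rho of 0.11 with Gas5 and 0.08 with Snhg1 over cells, with plates on both sides of 0.

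Genes that act on or with the snoRNA hosts showed no common shift. The 15 measured nonsense-mediated decay factors had a median log2 ratio of 0.08, with Smg8 past 2-fold (17.8 and 38.9 CPM) and overlapping plates. The 12 measured snoRNP proteins, which package the snoRNAs, had a median of -0.07, with Nop56 at 219 and 270 CPM and Fbl at 43.4 and 57.6 CPM. Their rho with Gas5 was 0.03 for decay factors and 0.08 for snoRNP proteins. The glucocorticoid receptor and its targets, relevant to Gas5 by its binding of the receptor, had a rho of 0.02 with Gas5. Of its 9 measured genes, 2 had plates apart, Tsc22d3 (235 and 446 CPM) and Dusp1 (656 and 1228 CPM), both higher in deleted hosts, against a background of 1.82% for that direction. The list summed to 1892 CPM in control and 2661 in deleted hosts, and without these 2 genes to 1001 and 987 CPM. Dusp1 is also on the list of immediate early genes, of which 6 of 10 measured had plates apart and higher in deleted hosts.

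Of the list of other long noncoding RNAs, 19 with a row are annotated as such in RefSeq, 5 of them at 20 CPM or more. Xist, the RNA of the inactive X chromosome, was at 170 and 177 CPM in control and deleted hosts. Tug1 was at 170 and 122, Kcnq1ot1, the imprinted antisense RNA, at 56.98 and 53.93, Mirt1 at 39.9 and 35.8 and Lncpint at 12.8 and 21.9 CPM. None of the 5 was past 2-fold, and the plates overlapped for all. The list as written also held protein-coding genes and small RNAs, which were not counted here.

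**Figure D4:**
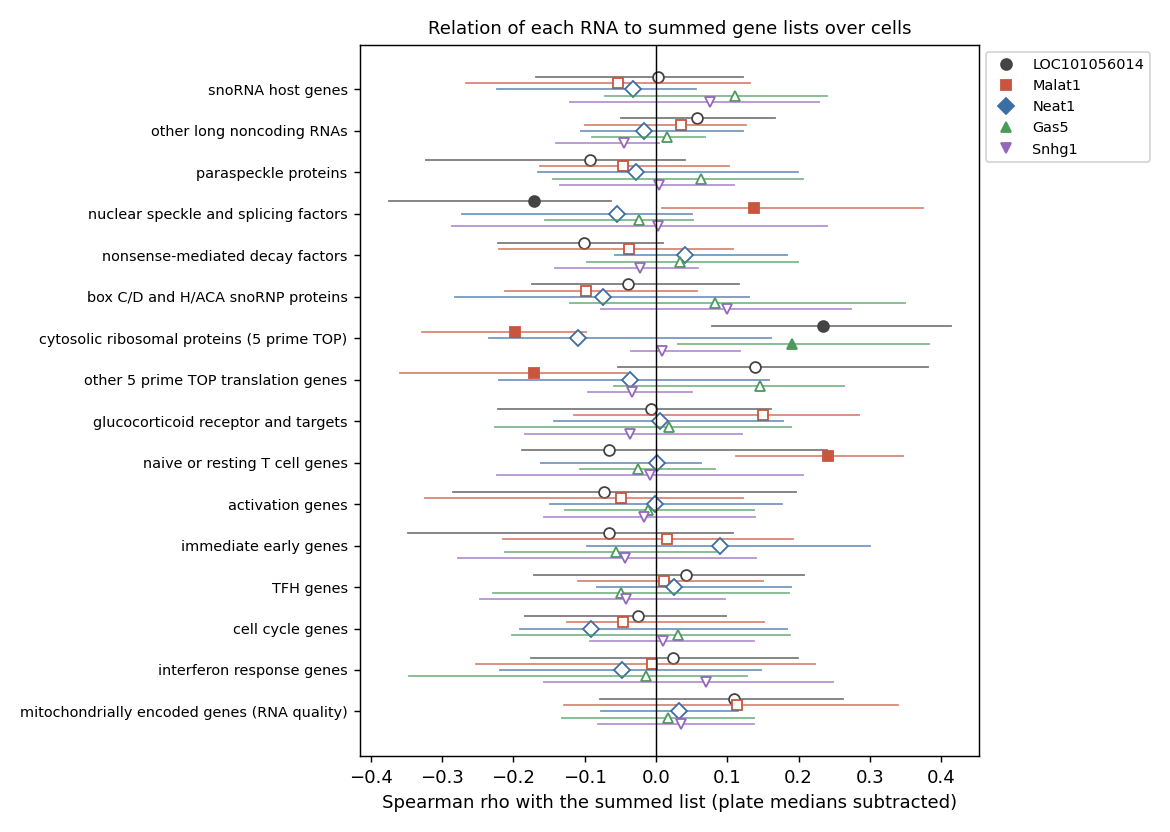
Spearman's rho over 734 cells of each RNA with the summed CPM of each gene list, plate medians subtracted; lines run from the lowest to the highest plate, and a filled symbol marks the same sign in all 8 plates. Filled symbols appear for LOC101056014 and Malat1 with speckle factors, for these and Gas5 with ribosomal protein genes, and for Malat1 with other 5' TOP genes and naive genes.

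Malat1 was higher in cells with more summed RNA of resting T cell genes, less so once genes detected were held fixed. Its rho with the summed naive list (Ccr7, Klf2, S1pr1, Tcf7 and others) was 0.24 (0.11 to 0.35 by plate, 8 of 8 positive). That list was itself lower in cells with more genes detected, with a rho of -0.42. With genes detected held fixed, the rho of Malat1 with it was 0.06, near the 0.05 left with speckle factors. Its rho with other 5' TOP genes became -0.13, that with ribosomal protein genes stayed at -0.20, and that with TFH genes became 0.16. The sums of activation genes, immediate early genes and TFH genes had rho of -0.05, 0.02 and 0.01 with Malat1 when genes detected were not considered, with plates of both signs. Immediate early genes summed to 3731 to 5121 CPM on control plates and 7410 to 7486 CPM on deleted plates. For Neat1 and Snhg1 no list of 16 had the same sign in 8 plates.

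Single markers gave small differences, and most naive markers gave none in a common direction. In 16 markers that could be compared on all 8 plates, the Malat1 median was lower in positive cells on at least 7 plates for 5. These were Nr4a1, a reporter of receptor signalling (7426 against 8034 CPM), Cxcr5, the follicular homing receptor (7261 against 7933), Icos (7457 against 7934), Tnfrsf9 (7177 against 7891) and Cd44 (7175 against 7881). It was higher in cells with S1pr1, the receptor for exit from lymphoid tissue (7944 against 7340 CPM, 7 of 8 plates), whereas Ccr7, Klf2 and Tcf7 each had 4 plates higher and 4 lower. With the 5 RNAs left out of the denominator, S1pr1 was higher on 6 plates and Cxcr5 lower on 6, so both calls were lost, and the other 4 were kept. The size of the log2 differences for the 6 markers was between 0.09 and 0.14. Genes detected moved with 5 of these 6 markers in the direction opposite to Malat1. Medians were 1814.5 genes with Cxcr5 against 1528 without, 1723 against 1512 for Icos, 1759.5 against 1532.5 for Tnfrsf9 and 1786 against 1532 for Cd44, and 1528 against 1735 for S1pr1. Nr4a1 was the exception, at 1557.5 against 1558 genes. The part of genes detected in the marker differences was not tested.

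No marker gave 7 plates of the same direction for the median of LOC101056014 or Gas5. The share of Neat1-positive cells was higher among Icos-positive cells on all 8 plates (19.5% against 13.9% in all), and among Egr1-positive cells on 7 (19.1% against 14.3%). The share of Snhg1-positive cells was higher on 7 plates with Icos (12.6% against 7.71%) and with Ccr7 (10.8% against 7.25%), and lower on 7 with Id3 (6.41% against 10.8%). The share of Gas5-positive cells was 67.6% with Tnfrsf9 and 59.6% without, higher on 7 plates. As given above, cells with Icos or Tnfrsf9 also held more genes. These shares were picked from 16 markers for each of Neat1, Gas5 and Snhg1. How many would reach 7 plates by chance, or for other genes, was not tested. Snhg1 was positive in only 6 to 12 cells of a plate, so its directions rest on few cells. The dividing-cell markers Mki67 and Top2a were in 11 and 15 cells only. Malat1 medians there were 5795 and 5626 CPM, below the 7767 and 7827 of the remaining cells, with too few cells on a plate to compare by plate.

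**Figure D5:**
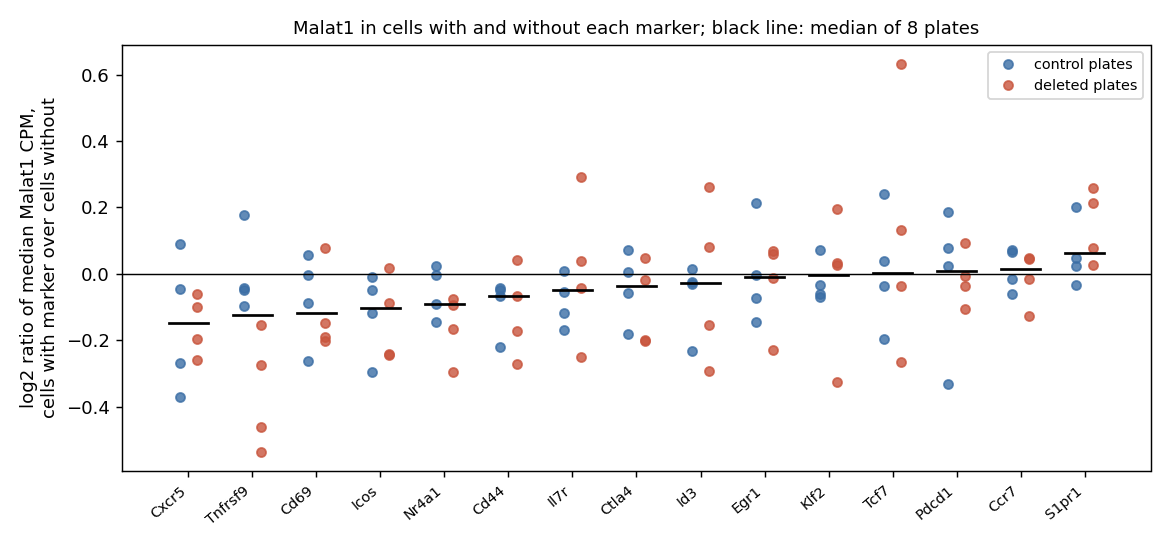
Log2 ratio of the Malat1 median in cells with over cells without each marker shown; each point is a plate, blue for control and red for deleted, and the black line is the median of 8 plates. Cxcr5, Icos, Nr4a1, Tnfrsf9 and Cd44 lie below 0 on at least 7 plates and S1pr1 above 0 on 7.

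The genes most like each RNA over 734 cells had low values of rho. For Malat1 the highest included Tsc22d3 (0.19), Dpp4 (0.16) and the mitochondrial gene COX1 (0.16), and the lowest were Actb (-0.26), Pfn1 (-0.25), Cfl1 (-0.23) and Ldha (-0.21). The first 3 of the lowest encode actin and actin-binding proteins, and all 4 were negative on every plate. Median Actb was 6052 CPM in the 25% of cells with the fewest genes detected and 8811 CPM in the 25% with the most. The part of genes detected in these values of rho was not tested. Over 1888 genes the middle 90% of rho with Malat1 lay between -0.13 and 0.06. For LOC101056014 the highest were Lars2 (0.20), Cd96 (0.18), Rpl18 (0.17) and Rplp0 (0.16), and the lowest Klf13 (-0.21), Tubb5 (-0.17), Actb (-0.16) and Il2rg (-0.14). For Gas5 they were Rpl35 (0.17), Rps6 (0.17), Rpl27 (0.13) and Prdx1 (0.13). For Neat1 and Snhg1 no gene passed 0.14 in size, which in sparse counts is no finding.

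The 5 RNAs varied largely apart from each other. The rho of the 10 pairs lay between -0.09 and 0.11, with the highest for LOC101056014 and Neat1. Gas5 was positive in 62.1% of Neat1-positive and 60.6% of the other cells. Gas5 and Snhg1 were both positive in 44 cells, which is 9.82% of the Gas5-positive and 64.7% of the Snhg1-positive cells. Malat1 and Neat1, neighbours on chromosome 19 with the shared 3' sequences shown above, had a rho of 0.07 (-0.17 to 0.26 by plate).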

How the data were processed

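Reads were measured in single CD4 T cells by SmartSeq2, with oligo(dT) priming, 25 PCR cycles and Tn5 tagmentation per the labels' protocols. Raw counts of reads per gene were deposited for every well. FeatureCounts 2.0.1 and build mm10 are named in the submitters' processing notes; aligner, annotation, strand setting and multi-mapping rule are not stated. No molecular identifiers are named, so intervals cover counting error only.

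Counts were summed per plate and pool and scaled to 1000000 reads in genes (CPM) in Python 3.11.15 (pandas 2.3.3, scipy 1.17.1). With 1 pool per group no test was made. Scripts were tested on simulated data. Ratios use a pseudocount of 1 CPM, and alternatives used TMM (edgeR 4.0.16) and median-of-ratios scaling (DESeq2 1.42.0). Relations over cells used 734 cells with 100000 reads or more, or 730 with 500000 for genes detected. No cell well was removed from sums, and no doublet caller was run on sorted wells.

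The members, gene lists, markers and alternatives were chosen with earlier results of these data known. Genes named beyond them were the 4 highest and 4 lowest by rho, at a mean of 50 CPM and 10 CPM in 20% of cells, and per list up to 4 with the largest ratio and 4 with the highest mean at 20 CPM or more. Some genes that this rule names are not reported here.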

Additional observations from a re-analysis of the deposited data

How the results depend on the processing

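Over 34 results and 294 alternatives, 270 stayed within the spread between plates (or, for counts, within 1.5 times). These include every leave-one-out alternative for log2 ratios (40), rho with genes detected (40) and gene lists (56). Leaving out 1 plate moves such a value by only part of that spread, so those alternatives are no check. A change of sign within the spread was not counted as a move, as for Snhg1 at -0.16 without control plate 3. The median over cells gave a log2 ratio of 0.26 for Neat1 and -0.23 for Gas5, opposite in sign to the summed levels. For Neat1 this median fell in cells called negative, at 1.30 (control) against 1.75 CPM (deleted). Negative cells held a median of 2 Neat1 reads, beside 0 to 6 in the noinput and dw wells. No direction for Neat1 can be read from the 0.26, because it rests on levels this close to 0. Without a minimum level, 3.05% of all genes had plates that did not overlap. Counting genes with at least 1 read moved rho with genes detected to 0.21 for LOC101056014, -0.13 for Malat1 and 0.079 for Neat1. Without the 5 RNAs in the denominator, no marker had higher Malat1 on at least 7 plates. Leaving out 1 plate at a time, the markers called higher in all but at most 1 plate numbered 0 to 2 for LOC101056014, 1 to 2 for Malat1 and 0 to 1 for Gas5. Those called lower numbered 0 to 2 for LOC101056014, 5 to 6 for Malat1 and 0 to 2 for Gas5. With genes detected held fixed, chosen after seeing the data, the rho of Malat1 with naive genes was 0.059 and with speckle factors 0.054. No paired analysis was possible because each group is 1 pooled sample and plates carry no number shared between groups. Cells called negative held 0 to 18 Neat1 reads and 0 to 12 Snhg1 reads, and the part of depth in these calls was not tested. TMM, median-of-ratios scaling and a denominator without the 5 RNAs kept each of the 5 log2 ratios within the spread between plates. Leaving out a plate kept each rho within that spread too, which is no check for the reason given above.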

Other observations

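By RefSeq type, 10038 rows of the tables are long noncoding RNA genes, and 2887 of these had reads in the cells. Together they took 8.12% of all reads in genes, of which 93.3% fell to the 5 RNAs described, 83.1% to LOC101056014 and 9.73% to Malat1. By reads, and without regard to length, Gas5 was 3rd among them, Neat1 10th and Snhg1 37th. The genes between Gas5 and Neat1, named after their values were seen, included AW112010 (250.3 CPM, positive in 47.7% of cells), Xist (173.2 CPM, 30.8%), 2010016I18Rik (154.9 CPM, 51.6%) and Tug1 (146.4 CPM, 28.4%). AW112010 and 2010016I18Rik were thus found in more cells than Neat1 (15.8%).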
